A study of Mus musculus with 10 samples.

Results

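The carboxylesterase transcripts of regenerating mouse liver were followed for 10 genes of the Ces1, Ces2 and Ces3 subfamilies, taken by symbol from a count table of 23056 genes. The members were Ces1c, Ces1d, Ces1e, Ces1f, Ces1g, Ces2a, Ces2c, Ces2e, Ces3a and Ces3b, and all 10 passed the filter on low counts that left 13688 genes for testing. The bulk transcriptomes came from 4 livers of mice labelled IFRD1-KO (KO) and 6 livers of wild-type (WT) mice. Both groups had undergone the same operation, a partial hepatectomy that removed the left lateral and median lobes, and both were taken 12 h later. Genotype is the only difference that the labels give between the groups, and no unoperated liver was compared. Ifrd1 encodes a transcriptional co-regulator, and the stated aim was to learn its part in liver regeneration. The labels do not give the knockout allele, the cells in which the gene is lost, or the age, sex and strain of the mice.

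Carboxylesterases are serine hydrolases, most of them held in the lumen of the endoplasmic reticulum, that split ester and amide bonds of drugs, acylglycerols and cholesteryl esters. Hepatocytes are a main site of their synthesis. In mice the family has expanded by tandem duplication, so that several closely related genes lie side by side, and some of them respond to the xenobiotic receptors PXR and CAR.

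All 10 genes lie on chromosome 8 (GRCm38, the assembly of mm10, GENCODE M21) in a pair of clusters. The Ces1 cluster (chr8:93020214-93535830, minus strand) spans 515.6 kb and holds 9 family genes, of which 5 are members. The cluster of Ces2, Ces3 and Ces4 genes (chr8:104734003-105150109, plus strand) spans 416.1 kb and holds 11 family genes, of which the other 5 are members. Coding sequences were 76.5 to 82.2% identical among the Ces1 members, 83.0 to 84.3% among the Ces2 members and 95.3% between Ces3a and Ces3b, against 67.3 to 71.8% between subfamilies. This likeness bears on the counts, because a read from a shared stretch cannot be given to a single gene. Ces3a and Ces3b share a run of 194 bases in their coding sequences, shown here because a read that falls wholly inside it carries nothing to tell these genes apart (GENCODE M21 transcripts, chromosome 8, plus strand, 5′ to 3′).
Ces3a and Ces3b: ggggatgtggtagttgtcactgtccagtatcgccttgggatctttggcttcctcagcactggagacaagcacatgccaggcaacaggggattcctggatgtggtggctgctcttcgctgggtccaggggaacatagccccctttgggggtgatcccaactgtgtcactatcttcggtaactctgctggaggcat

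Of all stretches of 50 bases in its transcripts, Ces2c shared 36.1% with another gene (most with the pseudogene Ces2d-ps), Ces3b 26.2%, Ces3a 25.6%, Ces2a 17.3% and Ces1c 13.0%. The other 5 members shared between 0.903% and 3.30%. At 100 bases the shares were 13.6% for Ces2c, 8.13% for Ces2a, 7.04% for Ces3b, 6.88% for Ces3a and 1.03% for Ces1c, and 0 for the others. The division of counts between Ces3a and Ces3b, and the levels of Ces2c and Ces2a, are therefore less certain than those of the 5 members with few shared stretches. The gene with which Ces2a shared the most stretches was Gm7208. Ces2e, with 3.30% of its 50-base stretches shared, is among those 5.

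Libraries held between 12675838 and 17098012 counts in KO and between 12307446 and 14340623 counts in WT. Ifrd1 itself was at 13.0 to 22.6 CPM in KO and 40.2 to 81.7 CPM in WT, where CPM is the read count normalised to the TMM-scaled library size (log2 fold change -1.59, SE 0.23, edgeR adjusted p = 0.0258, from a quasi-likelihood F test and the Benjamini-Hochberg procedure over all tested genes). WT replicate 4 stood apart from its group: its score on principal component 1 of all tested genes was 40.1, near the scores of the KO libraries (42.2 to 46.8), while the other WT libraries scored between -79.3 and -11.8. On component 2, WT replicates 5 and 6 scored 44.0 and 47.1, WT replicate 2 lay at the other end at -39.5, and the other libraries scored between -21.5 and 0.412. The Ifrd1 level of WT replicate 4 was 49.6 CPM, among those of the other WT livers and above every KO liver. Results are therefore given with and without WT replicate 4. This library was singled out after the data were seen. Leaving out the WT library nearest to KO on component 1 tends to widen the difference between the groups. Values and p-values without it are thus a description and not independent support. The 14 measured hepatocyte markers summed to 86301 to 97142 CPM in KO and 69672 to 117650 CPM in WT and none of them averaged under 1 CPM. In bulk liver, fewer cells of a type and less RNA per cell cannot be told apart.

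Ces1c and Ces3a made up most of the family's transcripts in both genotypes. Together they held 75.4 ± 2.15% of the summed CPM of the 10 members in KO (SD, n = 4) and 67.6 ± 7.04% in WT (SD, n = 6). Per kilobase of merged exon length, which allows genes to be compared, Ces1c was at 446 ± 43.3 CPM per kb in KO and 469 ± 171 in WT, and Ces3a at 371 ± 12.3 CPM per kb in KO and 308 ± 81.9 in WT. The next 3 genes in both groups were Ces3b (71.6 ± 9.33 in KO, 65.5 ± 19.4 in WT), Ces2a (62.5 ± 11.8 in KO, 112 ± 42.0 in WT) and Ces1d (39.6 ± 6.88 in KO, 65.0 ± 47.9 in WT), all in CPM per kb. Ces2c was the lowest member, at 3.26 ± 0.784 CPM per kb in KO and 5.18 ± 3.08 in WT. Between these, Ces1e, Ces1f, Ces1g and Ces2e had mean levels of 17.5 to 23.5 CPM per kb in KO and 25.6 to 35.1 in WT.

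More neighbours in this order were separate in KO, whose ranges cover 4 livers, than in WT, whose ranges cover 6. In KO, the library ranges of neighbours in the order did not overlap for Ces1c above Ces3a, Ces3a above Ces3b, Ces2a above Ces1d, Ces1d above Ces1f, and Ces2e above Ces2c. In WT, the ranges of neighbours were separate only for Ces3a above Ces2a and for Ces1g above Ces2c, and every other pair of neighbours overlapped. In this order by merged exon length, Ces2e ranked 9 among the 10 members in KO and 6 in WT. The ranges of its neighbours overlapped its own on at least 1 side in each group. By coding length its ranks were 8 in KO and 7 in WT.

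The summed CPM of the family was 2704, 2742, 2502 and 2713 in the 4 KO livers, against a lowest of 2172, a median of 2635 and a highest of 3702 in the 6 WT livers. The KO livers lay inside the WT range and were closer to each other. The sum averaged 2665 ± 110 CPM in KO (SD, n = 4) and 2808 ± 578 CPM in WT (SD, n = 6), a log2 ratio of -0.08 that moved to 0.02 without WT replicate 2 and was -0.14 without WT replicate 4. The members took 0.237 to 0.287% of all counts in KO and 0.223 to 0.362% in WT.

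**Figure D1:**
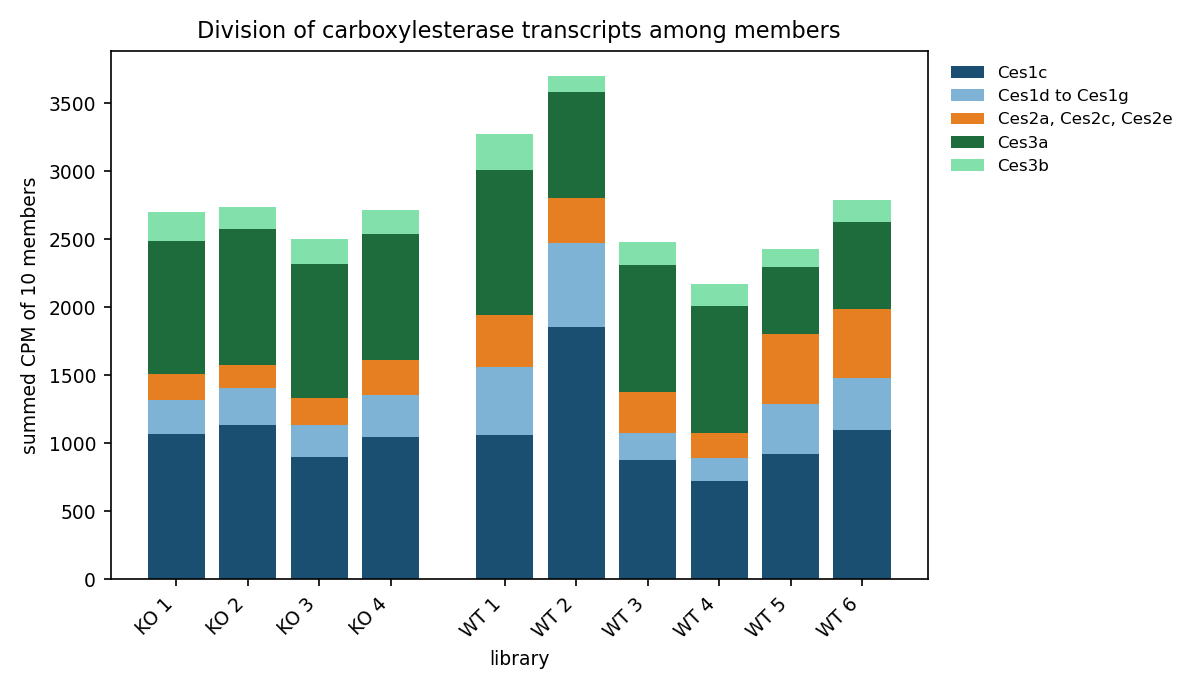
Stacked bars give the summed CPM of the 10 members in each of the 4 KO and 6 WT libraries, divided into Ces1c, Ces1d to Ces1g, the 3 Ces2 genes, Ces3a and Ces3b. The KO sums lie between 2502 and 2742 CPM and the WT sums between 2172 and 3702 CPM, and the Ces2 segment is widest in WT replicates 5 and 6.

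The division of the sum among the subfamilies is given as a description, with no test. The 3 Ces2 members summed to 191, 169, 195 and 255 CPM in the KO livers, against a lowest of 179, a median of 356 and a highest of 517 CPM in WT livers. WT replicate 4 lay inside the KO range, and the other WT livers, at 300.5 CPM or above, were higher than every KO liver. The Ces2 share of the family was 7.60 ± 1.37% in KO (SD, n = 4) and 13.4 ± 5.25% in WT (SD, n = 6). The Ces3 pair summed to 1158 ± 40.9 CPM in KO and 976 ± 251 CPM in WT, and the 5 Ces1 members to 1305 ± 118 CPM in KO and 1462 ± 554 CPM in WT. The Ces2 sum divided by the Ces3 sum was 0.159, 0.145, 0.166 and 0.232 in the KO livers. In WT livers this ratio was 0.163 in replicate 4 and 0.288, 0.365, 0.272, 0.828 and 0.640 in replicates 1, 2, 3, 5 and 6. Of the WT livers, only replicate 4 lay inside the KO range of the ratio.

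With all 10 libraries, 0 of the 10 members were called between KO and WT by edgeR at an adjusted p under 0.05, against 1.33% of all 13688 genes (0.767% lower and 0.563% higher in KO). Ces2a and Ces2e, 2 of the 10, had an unadjusted p under 0.05, both lower in KO, against 14.4% of all genes lower and 26.0% in either direction. The log2 fold change was below 0 for 8 of the 10 members, against 51.6% of all genes, with a median of -0.39 over the members and -0.02 over all genes. Without WT replicate 4, Ces2a and Ces2e were called lower in KO, 2 of 10, while 10.9% of all genes were called lower and 21.4% in either direction. The count of called members is thus close to the share among all genes once that library is left out. Every member's KO and WT libraries overlapped with all libraries (6.90% of all genes did not), and without WT replicate 4 only those of Ces2a and Ces2e were separate (22.3% of all genes).

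**Figure D2:**
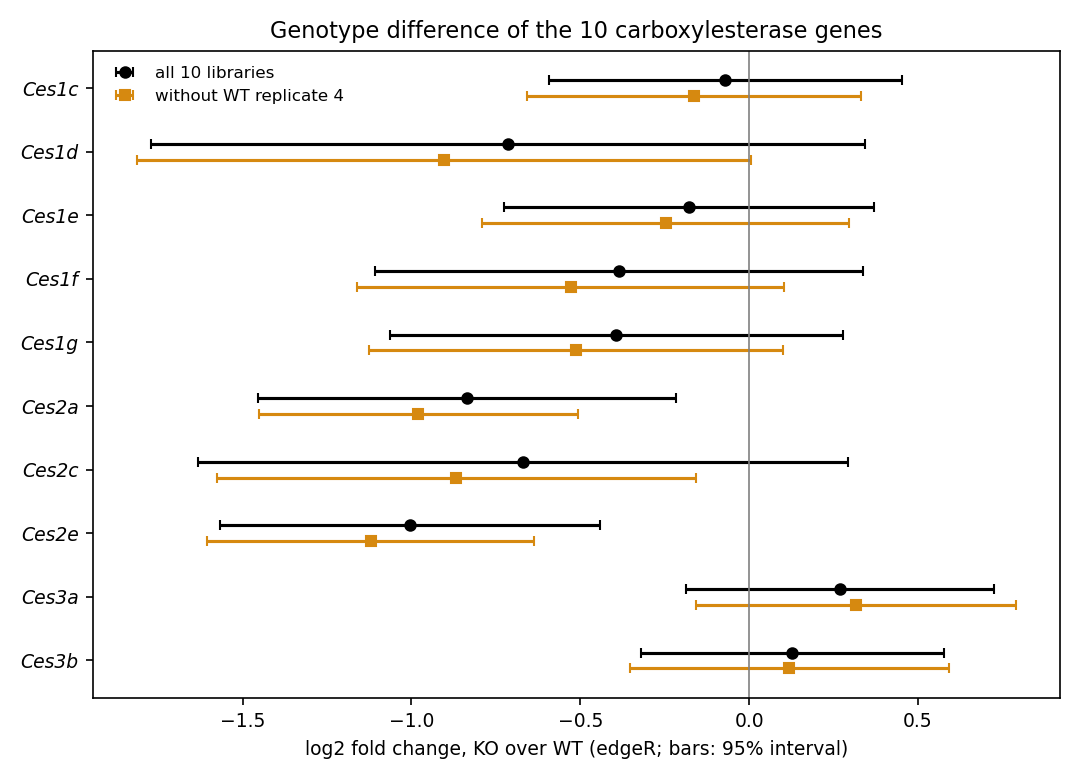
Points give edgeR's log2 fold change of each member, KO over WT, and bars its 95% interval, with all 10 libraries (black circles) and without WT replicate 4 (orange squares). With all libraries the intervals of Ces2a and Ces2e lie below 0 and the other 8 include 0; without WT replicate 4 the interval of Ces2c lies below 0 as well.

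The Ces2 genes encode esterases of liver and intestine, and mouse Ces2c is known as an inducible acylcarnitine hydrolase. Their promoters are shown because the level of Ces2a varied with that of Ces2c and of Ces2e from liver to liver (correlations are given further on). Each line holds the 200 bases before the start of the gene (RefSeq, GRCm38.p6, plus strand, 5′ to 3′). Capitals mark every copy, on the strand shown, of the runs of 7 bases found in all 3 of these promoters, which were picked out by comparing the sequences. Their positions are chr8:104733803-104734002 for Ces2a, chr8:104846868-104847067 for Ces2c and chr8:104926060-104926259 for Ces2e.
Ces2a: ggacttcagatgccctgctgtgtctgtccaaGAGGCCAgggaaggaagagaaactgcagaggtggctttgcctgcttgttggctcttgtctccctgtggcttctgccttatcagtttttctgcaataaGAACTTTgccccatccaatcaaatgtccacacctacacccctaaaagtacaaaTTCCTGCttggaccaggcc
Ces2c: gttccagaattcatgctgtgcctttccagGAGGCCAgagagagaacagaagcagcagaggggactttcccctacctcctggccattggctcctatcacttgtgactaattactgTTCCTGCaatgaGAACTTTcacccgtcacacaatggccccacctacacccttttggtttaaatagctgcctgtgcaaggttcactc
Ces2e: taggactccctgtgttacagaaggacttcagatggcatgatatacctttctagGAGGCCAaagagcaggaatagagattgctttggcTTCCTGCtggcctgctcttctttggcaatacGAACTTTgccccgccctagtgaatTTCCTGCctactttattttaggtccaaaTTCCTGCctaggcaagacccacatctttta

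The run GAACTTT began 72, 74 and 82 bases before the start in Ces2a, Ces2c and Ces2e, and GAGGCCA 169, 171 and 147 bases before it. The run TTCCTGC began 19 bases before the start in Ces2a, 86 bases before it in Ces2c, and 113, 58 and 30 bases before it in Ces2e, which holds 3 copies. Within 250 bases before the start and on either strand, GAACTTT occurred in 3.28%, GAGGCCA in 6.56% and TTCCTGC in 7.28% of 32851 mouse promoters. A search on both strands of the same window covered AGGTCA and AGTTCA (nuclear receptor half-sites), TGACNNNGC (the antioxidant response element core), TTGCNNAA (a C/EBP-type site) and TATAAA. Of these, the Ces2a promoter held AGGTCA, present in 14.0% of all promoters, and 2 matches to TTGCNNAA, present in 9.56% of all promoters. The Ces2e promoter held TTGCNNAA, and the Ces2c promoter held none of the 5. Of the other members with a promoter in the table, Ces1c held TTGCNNAA, Ces1g and Ces3b held TATAAA (12.4% of all promoters), and Ces1e held none; AGTTCA (11.8%) and TGACNNNGC (10.2%) were in none of the 7. A match of letters is a description and does not mark a bound site. Whether any shared run or match bears on the levels was not tested.

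Ces2e was the member with the smallest p. It was at 49.3, 35.1, 46.1 and 58.4 CPM in the KO livers, against a lowest of 54.2, a median of 96.9 and a highest of 133 CPM in the WT livers. The groups overlapped through KO replicate 4 and WT replicate 4, and the next WT liver was at 68.4 CPM. Ces2e averaged 47.2 ± 9.63 CPM in KO (SD, n = 4) and 94.8 ± 31.9 CPM in WT (SD, n = 6), a log2 fold change of -1.0 (SE 0.26, 95% interval -1.57 to -0.44, edgeR adjusted p = 0.0627), which missed the threshold. A two-sided exact permutation test of Ces2e alone over the 210 arrangements of the genotype labels gave p = 0.0190, unadjusted. With that WT library left out the log2 fold change was -1.12 (SE 0.22, edgeR adjusted p = 0.00529), a 2.17-fold lower level in KO.

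Ces2a, the most abundant member of its subfamily, was at 136, 127, 139 and 189 CPM in the KO livers, against a lowest of 121, a median of 253 and a highest of 374 CPM in WT livers. WT replicate 4 was the lowest of all 10 livers, and the other WT livers, from 207 CPM upward, were above every KO liver. The means were 148 ± 27.9 CPM in KO (SD, n = 4) and 263 ± 99.0 CPM in WT (SD, n = 6), with a log2 fold change of -0.84 (SE 0.29, 95% interval -1.45 to -0.22, edgeR adjusted p = 0.104). The exact permutation p of Ces2a alone was 0.0571, two-sided. Leaving out WT replicate 4 gave -0.98 on the log2 scale (SE 0.22, adjusted p = 0.00876), 1.97-fold lower in KO, with an exact permutation p of 0.0159 for Ces2a and for Ces2e alike over 126 arrangements.

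DESeq2 on all 10 libraries called Ces2e (adjusted p = 0.00729) and Ces2a (adjusted p = 0.0447) lower in KO, where it called 6.60% of all genes lower and 3.66% higher. limma-voom with sample weights also called both (adjusted p = 0.00911 for Ces2e and 0.0132 for Ces2a), with 8.93% of all genes called lower. Unweighted limma-voom on the same libraries called neither (adjusted p = 0.0577 for Ces2e and 0.118 for Ces2a). WT replicates 5 and 6 were the highest livers for both genes. Without them edgeR's log2 fold change shrank to -0.75 for Ces2e (adjusted p = 0.143) and -0.51 for Ces2a (adjusted p = 0.253). The calls for this pair thus depended on the tool and on WT replicate 4, whereas their direction was the same in every fit.

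Ces2c, the least abundant member, had 86 to 129 counts per KO library and 45 to 329 per WT library. It was at 5.74, 6.63, 9.91 and 7.71 CPM in the KO livers, against a lowest of 3.06, a median of 11.2 and a highest of 21.7 CPM in WT livers. WT replicate 4 was again the lowest liver, and the WT livers spread over a 7.10-fold range. The log2 fold change was -0.67 (SE 0.44, edgeR adjusted p = 0.355), and without WT replicate 4 it was -0.87 (SE 0.33, adjusted p = 0.0766). Ces2g, another gene of the subfamily, was at 33.7 ± 5.45 CPM in KO and 30.5 ± 3.20 CPM in WT, with a log2 fold change of 0.14 (adjusted p = 0.546), so its fold change had the other sign.

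**Figure D3:**
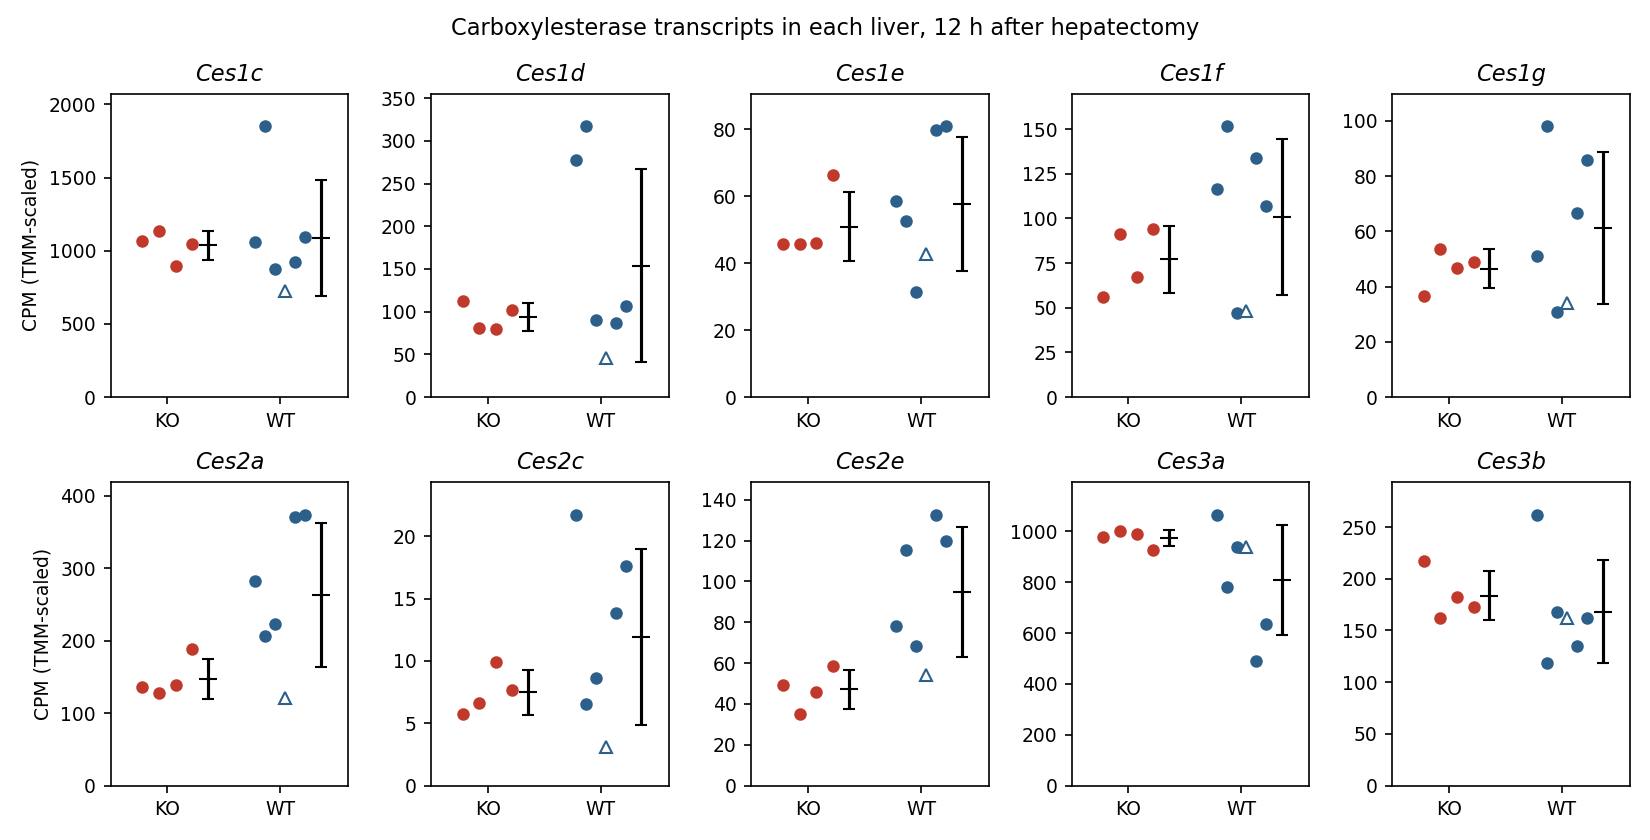
Each panel plots the CPM of a member in the 4 KO livers (red, left) and the 6 WT livers (blue, right), with the mean and SD as bars; the open triangle is WT replicate 4. The KO livers cluster tightly for Ces3a (927 to 1001 CPM), and WT replicate 4 is the lowest WT liver for Ces1c, Ces1d, Ces2a, Ces2c and Ces2e.

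The Ces1 members varied between WT livers more than between genotypes. Ces1c, whose product is the plasma esterase of mouse blood, was at 1066, 1137, 898 and 1046 CPM in the KO livers, against a lowest of 723, a median of 991 and a highest of 1852 CPM in WT livers. The KO livers lay within the WT range, and WT replicate 2 alone was far above all others. Its log2 fold change was -0.07 (SE 0.24, 95% interval -0.59 to 0.45, edgeR adjusted p = 0.882) and turned to 0.15 without WT replicate 2.

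Ces1d encodes a triacylglycerol hydrolase that takes part in the release of stored lipid for very low density lipoprotein. It was at 113, 81.2, 79.5 and 102 CPM in the KO livers, against a lowest of 46.2, a median of 98.4 and a highest of 317 CPM in WT livers. WT replicates 1 and 2, at 277 and 317 CPM, were above all other livers, WT replicate 4 was below them, and the WT coefficient of variation was 73.6% against 17.4% in KO. The log2 fold change of -0.71 (SE 0.48, 95% interval -1.77 to 0.34, edgeR adjusted p = 0.369) did not stand out from this spread. In a fit without WT replicates 4, 5 and 6, chosen after the data were seen, Ces1d was called lower in KO (log2 fold change -1.28, adjusted p = 0.0359), as were Ces2a and Ces2e, with 11.5% of all genes called lower and 22.1% in either direction.

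Ces1f, a related triacylglycerol hydrolase, ranged from 55.8 to 94.3 CPM in KO and from 47.2 to 152 CPM in WT, and Ces1g, which hydrolyses acylglycerols and cholesteryl esters, from 36.8 to 53.8 CPM in KO and from 30.7 to 98.1 CPM in WT. Ces1e, known as egasyn, which holds beta-glucuronidase in the endoplasmic reticulum, ranged from 45.6 to 66.3 CPM in KO and from 31.3 to 80.9 CPM in WT. For each of these 3 genes the KO range lay inside the WT range. Their log2 fold changes were -0.39 (SE 0.33, adjusted p = 0.484) for Ces1f, -0.39 (SE 0.31, adjusted p = 0.438) for Ces1g and -0.18 (SE 0.25, adjusted p = 0.686) for Ces1e in edgeR's test. The beta-glucuronidase gene Gusb was at 10.6 ± 1.20 CPM in KO and 15.2 ± 4.24 CPM in WT, with a log2 fold change of -0.52 (adjusted p = 0.168, and 0.0204 without WT replicate 4).

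The Ces3 pair, esterases abundant in mouse hepatocyte endoplasmic reticulum, had fold changes of the other sign. Ces3a was at 979, 1001, 988 and 927 CPM in the KO livers, against a lowest of 489, a median of 859 and a highest of 1066 CPM in WT livers. The KO livers differed little from each other, with a coefficient of variation of 3.32% against 26.6% in WT, where replicates 5 and 6 were lowest. Ces3a averaged 974 ± 32.4 CPM in KO and 808 ± 215 CPM in WT, a log2 fold change of 0.27 (SE 0.21, 95% interval -0.19 to 0.73, edgeR adjusted p = 0.436). Ces3b was at 184 ± 23.9 CPM in KO and 168 ± 49.8 CPM in WT, a log2 fold change of 0.13 (SE 0.21, adjusted p = 0.731). These genes share long runs of sequence, and how reads from them were counted was not given. The pair's sum does not depend on how such reads were divided between the genes, but it would lack any that were dropped.

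The spread between livers was smaller in KO than in WT for all 10 members, as a description. The coefficients of variation lay between 3.32 and 24.3% in KO (n = 4) and between 26.6 and 73.6% in WT (n = 6). The share of all genes with a smaller spread in KO was not counted. Outside the members, Ces2g had a larger coefficient of variation in KO (16.2%) than in WT (10.5%). The other tested family genes, Ces1b and Ces4a, had the smaller one in KO. Over all tested genes, too, component 1 held the KO libraries closer together (42.2 to 46.8) than the WT libraries (-79.3 to 40.1). WT replicate 4 had the lowest WT level in 5 of the 10 members, against 23.0% of all genes, and was second lowest in another 3.

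Some members of a subfamily moved together from liver to liver. Over 45 pairs of members, 5 had a Pearson correlation of log2 CPM that passed Benjamini-Hochberg adjustment over the pairs. A Spearman correlation passed for 2. Both were judged by permutation tests with 100000 resamples over the 10 livers. The resampling took no account of genotype, so any difference between KO and WT enters these values, which are given as a description. Ces1f and Ces1g had r = 0.90 (adjusted permutation p = 0.0211) and rho = 0.915 (0.0238). That relation held at r = 0.822 without the pair of livers farthest from the median and at r = 0.899 within WT livers (exact permutation p = 0.025, n = 6). Ces2a and Ces2e had r = 0.878 (adjusted permutation p = 0.0281) and rho = 0.867 (0.0475), with r = 0.744 without the farthest pair of livers and r = 0.789 within WT (exact permutation p = 0.05, n = 6). Ces2a and Ces2c had r = 0.81 (adjusted permutation p = 0.0412) and rho = 0.818 (0.0827), with r = 0.748 without the farthest livers and 0.909 within WT. The remaining Ces2 pair, Ces2c and Ces2e, had r = 0.517 (adjusted permutation p = 0.23).

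Ces2e and Ces3a ran in opposite directions, with r = -0.795 (adjusted permutation p = 0.0318), rho = -0.709 (0.147), r = -0.612 without WT replicates 5 and 6, and r = -0.813 within WT (exact permutation p = 0.0528, n = 6). The relation of Ces1c and Ces1d, r = 0.80 (adjusted permutation p = 0.0412) and rho = 0.648 (0.205), rested on WT replicates 2 and 4, since r was 0.327 without them. No within-WT value passed the adjustment over the 45 pairs, where the lowest adjusted permutation p was 0.281.

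The tested genes outside the family most like Ces2e in log2 CPM over the 10 livers were Rab5if (r = 0.98), Rbm17 (r = 0.977) and Rabgef1 (r = 0.975), of 13675 genes compared. Those most like Ces2a were Pald1 (r = 0.983), Gstm2-ps1 (r = 0.959) and Ubap1 (r = 0.958). Those most like Ces2c were Spata7 (r = 0.934), Setd7 (r = 0.91) and Aff1 (r = 0.905). These are the highest values among many and carry no test. Rab5if was itself called lower in KO, at 4.39 to 6.22 CPM against 7.69 to 19.4 CPM in WT (log2 fold change -1.34, edgeR adjusted p = 0.0468).

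Of the other carboxylesterase genes, 8 had a row in the table and 3 passed the filter, with 0 called. Ces1b, which shares the most 50-base stretches with Ces1c, was at 47.0 ± 6.56 CPM in KO and 35.9 ± 15.4 CPM in WT (log2 fold change 0.39, edgeR adjusted p = 0.372). Ces4a was at 1.49 ± 0.821 CPM in KO and 0.896 ± 0.749 CPM in WT (log2 fold change 0.71, adjusted p = 0.516). Ces1a, Ces1h, Ces2b, Ces2h and Ces2d-ps had between 4 and 84 counts in all 10 libraries together and were not tested, and Ces2f and Ces5a were not analysed here.

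Of 24 tested genes among other ester and amide hydrolases of liver, 0 were called with all libraries by edgeR, with 7 higher and 4 lower at an unadjusted p under 0.05 (11.6% and 14.4% of all genes) and a median log2 fold change of 0.19. Without WT replicate 4, 4 rose (Faah, Lipe, Mgll and Abhd3) and 2 fell (Pnpla2 and Gusb), named here after their values were seen, against 10.5% of all genes called higher and 10.9% lower. Faah, the fatty acid amide hydrolase, was at 113 ± 16.0 CPM in KO and 64.1 ± 24.4 CPM in WT (log2 fold change 0.81, adjusted p = 0.0793 with all libraries and 0.00231 without WT replicate 4). Pnpla2, the adipose triglyceride lipase, was at 64.0 ± 8.21 CPM in KO and 120 ± 45.6 CPM in WT (log2 fold change -0.91, adjusted p = 0.0852 and 0.00414). Aadac, an esterase of the endoplasmic reticulum like the members, was at 206 ± 14.6 CPM in KO and 226 ± 26.9 CPM in WT (log2 fold change -0.13, adjusted p = 0.580).

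Carboxylesterase genes are known targets of several nuclear receptors and liver factors, and 18 such regulators were tested. With all libraries 0 were called by edgeR, with 8 higher and 3 lower at an unadjusted p under 0.05 (11.6% and 14.4% of all genes) and a median log2 fold change of 0.27. Without WT replicate 4, 6 rose (Nr1h4, Onecut1, Foxa2, Nr1h3, Ppara and Nr1i3) and 3 fell (Nr1i2, Nr0b2 and Cebpb), where 10.5% of all genes were called higher and 10.9% lower. Nr1i2, which encodes PXR, was at 41.1 to 69.2 CPM in KO and 66.1 to 238 CPM in WT, where the lowest liver was replicate 4 (log2 fold change -1.48, SE 0.33, adjusted p = 0.0510, and 0.00147 without that library). Nr1i3, which encodes CAR, was at 202 to 288 CPM in KO and 9.45 to 209 CPM in WT (log2 fold change 1.66, SE 0.67, adjusted p = 0.151, and 0.0208 without WT replicate 4). The genes of these xenobiotic receptors thus had fold changes of opposite sign.

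Nr1h4, which encodes the bile acid receptor FXR, was at 223 to 273 CPM in KO and 22.7 to 266 CPM in WT (log2 fold change 1.55, adjusted p = 0.137, and 0.000825 without WT replicate 4 in edgeR's test). Ppara, the fatty acid receptor, was at 34.8 ± 8.40 CPM in KO and 21.2 ± 5.39 CPM in WT (log2 fold change 0.72, adjusted p = 0.0829, and 0.0170 without WT replicate 4). Hnf4a, a master regulator of hepatocyte genes, and Nfe2l2, which encodes the oxidative stress factor NRF2, had log2 fold changes of -0.16 (adjusted p = 0.695) and -0.25 (adjusted p = 0.323), and neither was called without WT replicate 4.

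Of 11 tested target genes of CAR and PXR, 1 fell and 0 rose with all libraries, with 6 lower and 1 higher at an unadjusted p under 0.05 (14.4% and 11.6% of all genes) and a median log2 fold change of -0.97. The called gene was Por, which passes electrons to the cytochromes P450, at 69.2 to 120 CPM in KO and 78.5 to 702 CPM in WT (log2 fold change -2.29, SE 0.49, edgeR adjusted p = 0.0495). Cyp2b10, a classical CAR target, was at 1.16 ± 0.629 CPM in KO and 11.7 ± 10.3 CPM in WT (log2 fold change -3.30, adjusted p = 0.0535, and 0.0134 without WT replicate 4). Cyp3a11, a classical PXR target, was at 1856 ± 359 CPM in KO and 3623 ± 2132 CPM in WT (log2 fold change -0.97, adjusted p = 0.153, and 0.0326 without WT replicate 4). Of the 11, 6 fell and 0 rose without WT replicate 4, where 10.9% of all genes were called lower and 10.5% higher.

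**Figure D4:**
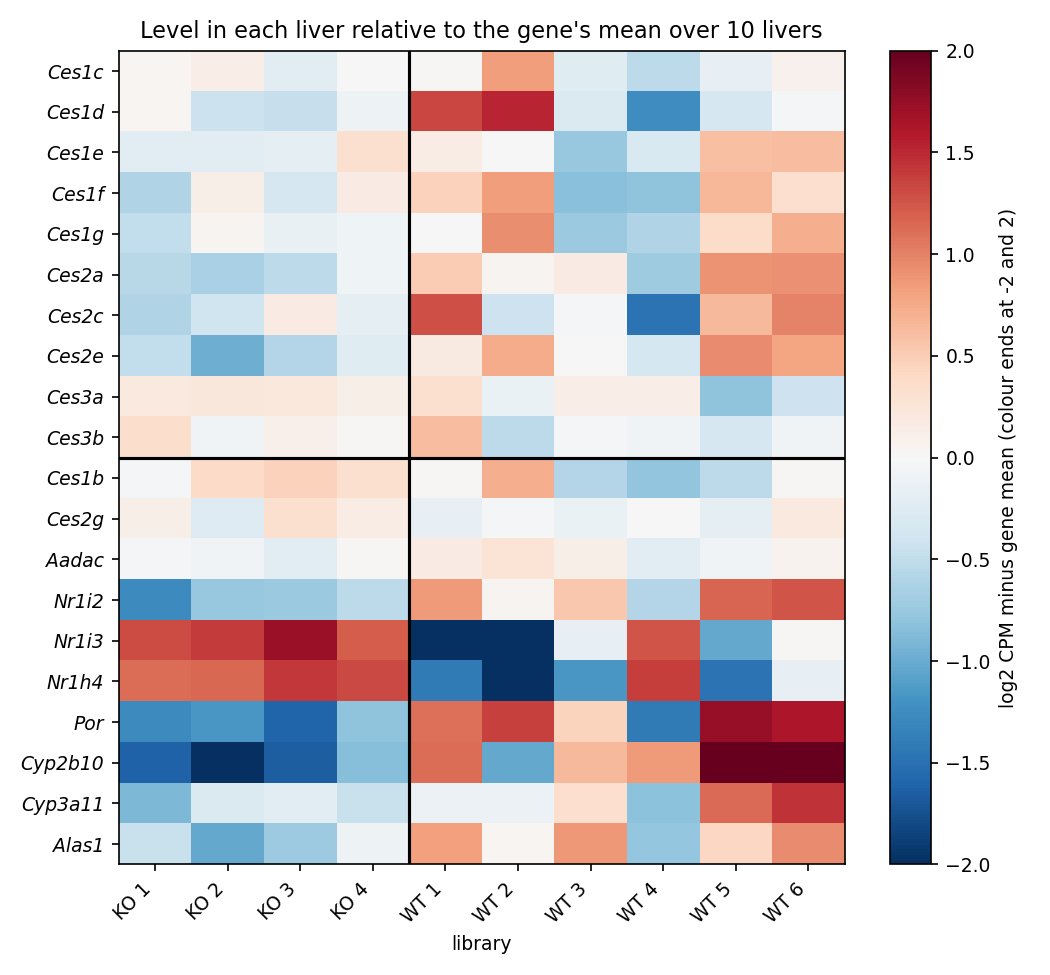
Colours give the log2 CPM of each gene in each library less that gene's average of the 10 libraries, KO on the left, for the 10 members (above the line) and for related esterases, receptors and CAR or PXR targets (below it); colours end at -2 and 2. Ces2a, Ces2e, Nr1i2, Por and Cyp3a11 are below their mean in all KO livers and in WT replicate 4, and highest in WT replicates 5 and 6.

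Side by side, Ces2a, Ces2e, Nr1i2 and Por were below their own means in all 4 KO livers and in WT replicate 4, and highest in WT replicates 5 and 6. They were picked after their values were seen, and the share of all genes with this pattern was not counted. Cyp3a11 had it as well. In contrast, Cyp2b10 was above its mean in WT replicate 4 and Ces2c in KO replicate 3. Over all tested genes, too, WT replicate 4 lay near KO on component 1, and WT replicates 5 and 6 lay at one end of component 2. Whether any of these genes are linked was not tested. Of 15 genes of triglyceride mobilisation and very low density lipoprotein assembly in the endoplasmic reticulum, where Ces1d acts, 0 were called with all libraries by edgeR, with 1 higher and 2 lower at an unadjusted p under 0.05 (11.6% and 14.4% of all genes) and a median log2 fold change of 0.07. Cideb rose and Dgat1 fell when WT replicate 4 was left out (10.5% and 10.9% of all genes). Mttp, the lipid transfer protein of that assembly, was at 206 ± 32.6 CPM in KO and 173 ± 14.7 CPM in WT (log2 fold change 0.25, adjusted p = 0.301).

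Markers of other cells also differed between these livers. The 11 macrophage markers summed to 54.0 to 102 CPM in KO and 69.4 to 430 CPM in WT, and the 9 monocyte and neutrophil markers to 9.45 to 18.9 CPM in KO and 12.6 to 183 CPM in WT, with WT replicate 2 highest in both lists. The 7 cholangiocyte markers summed to 42.5 to 66.3 CPM in KO and 32.1 to 284 CPM in WT, highest in WT replicate 1. B and plasma cell markers summed to 4.61 to 6.40 CPM in KO and, in WT, to 237 CPM in replicate 2 and 4.30 to 10.4 CPM in the other livers. The intestinal list summed to 1617 to 2831 CPM in KO and 397 to 1683 CPM in WT, nearly all of it from Apoa4 and Fabp2, which liver also expresses. Fabp2 was called higher in KO (log2 fold change 1.22, edgeR adjusted p = 0.0468), while the intestinal markers Vil1, Lct and Muc2 averaged under 1 CPM. Sinusoidal endothelial markers summed to 121 to 195 CPM in KO and 98.2 to 184 CPM in WT, with Fcgr2b called higher in KO (log2 fold change 1.03, edgeR adjusted p = 0.0440). Stellate cell markers (229 to 303 CPM in KO, 196 to 364 CPM in WT), adipocyte markers (57.6 to 207 CPM in KO, 60.5 to 124 CPM in WT) and exocrine pancreas markers (3.38 to 7.94 CPM in KO, 6.06 to 18.1 CPM in WT) overlapped between the groups, with 0 called. Of the 6 measured adipocyte markers, Adipoq, Plin1, Retn, Cfd and Cidea averaged under 1 CPM, so nearly all of that sum came from Fabp4. Only 2 of the 8 listed exocrine pancreas markers were measured. No measured marker of any list was at 0 in every library. Mitochondrially encoded transcripts took 16.5 to 30.5% of counts in KO and 14.5 to 28.9% in WT. The part of these differences in the carboxylesterase values was not tested.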

How the data were processed

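Poly(A) RNA of 10 mouse livers was sequenced on an Illumina NovaSeq after NEBNext Ultra library preparation, per the labels' protocols. The authors deposited raw read counts per gene symbol, 1 column per library, without pooling. The tools named in the submitters' processing notes are STAR, HTSeq and DESeq2, and the build is mm10. Their versions, the strand setting, the annotation and the handling of reads that match several genes were not given in the sources used here. Every column was used (0 left out). Labels do not name animals: libraries were treated as separate mice, so a p-value reflects the spread from library to library.

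From these counts, edgeR 4.0.16 (R 4.3.3) was run with TMM scaling, filterByExpr and robust quasi-likelihood tests on all genes, with Benjamini-Hochberg adjustment over 13688 genes (99.84% of counts) and calls under 0.05. Intervals are 95% confidence intervals of the log2 fold change. Their SE was worked back from the fold change and edgeR's F statistic, and it reflects the spread between libraries. CPM used TMM-scaled library sizes, and log2 CPM a prior count of 2. Single members were also compared by exact permutation of log2(CPM + 0.5), over 210 arrangements of the labels (smallest two-sided p 0.00476) or 126 without WT replicate 4 (0.00794). Library pairs within a group differed beyond sampling noise, with chi-square per degree of freedom of 20.8 to 169.

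GENCODE M21 held 22277 (96.6%) of the symbols and gave lengths, coordinates and transcripts. RefSeq promoters (GRCm38.p6) matched 7 of 10 members; Ces1d, Ces1f and Ces3a had none in the table. Promoter windows reach 250 bases before the start, and 200 are printed. The fit was tested on simulated data.

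Members and gene lists were chosen with earlier results of these data known. Named genes were all members, Ifrd1, tested family genes and up to 4 called genes per list. Another 11 genes were named in advance from the lists (such as Nr1i2 and Mttp). The 3 genes most like each of the 3 members of smallest p were also named. All others, such as Foxa2, Nr0b2, Cideb and Dgat1, were named after their values were seen. The settings also tried were upper-quartile and RLE scaling, no filter or at least 1 CPM in 4 libraries, limma-voom (limma 3.58.1) unweighted and weighted, DESeq2 1.42.0, a replicate block, other pseudocounts (0.1 and 5), other gene lengths, and leaving out libraries.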

Additional observations from a re-analysis of the deposited data

Results flagged for a closer look

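Over 28 groups of values (each member and the sums, in KO and in WT), 4 had a highest or lowest library whose gap to the nearest other, divided by the group's range, passed the critical value of Dixon's test. Chance gives about 5% of groups, 1 in 20. Ces1e in KO replicate 4 was at 66.3 CPM, with the nearest other KO liver at 46.0 CPM (gap over range 0.98). The sum of the 10 members was 2502 CPM in KO replicate 3, against a nearest 2704 CPM (0.845). Ces1c was at 1852 CPM in WT replicate 2, against a nearest 1097 CPM (0.669), and Ces3b at 262 CPM in WT replicate 1, against a nearest 168 CPM (0.656). WT replicates 1 and 2 were also the highest of the cholangiocyte and of the macrophage marker sums, and the part of other cells in these values was not tested.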

How the results depend on the processing

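Each member was refitted under 21 alternatives, giving 210 results, of which 196 kept their direction and side of the threshold, 9 passed it and 5 turned in direction; 8 members kept their direction in every fit. With single libraries left out, Ces1c ran from a log2 fold change of -0.16 (without WT replicate 4) to 0.15 (without WT replicate 2); it was 0.039 with weighted limma-voom and -0.28 without WT replicates 4, 5 and 6. Ces1e turned to 0.16 with the replicate block, 0.13 without WT replicates 5 and 6, and 0.10 without WT replicates 4, 5 and 6. Called members numbered 0 with all libraries in edgeR and in unweighted limma-voom, and 2 in DESeq2 and in weighted limma-voom. They numbered 0 to 2 on leaving out each library, 0 without WT replicates 5 and 6, and 3 without 4, 5 and 6. Genes called overall numbered 182, against 0 to 2893 on leaving out each library (2893 without WT replicate 4, 55 or fewer without any other), 4 without WT replicates 5 and 6, 3014 without 4, 5 and 6 (chosen after the data were seen), 1624 with DESeq2, 318 with limma-voom and 2629 with weights. The cause was not tested. The labels do not say that replicate numbers pair the libraries. For each number shared by KO and WT, deviations from the group means had r of 0.179, 0.069, -0.029 and -0.02. These values cannot settle whether the libraries were paired. With the numbers as a replicate block 1 gene was called, and Ces2e had -0.71 (adjusted p = 0.213, edgeR) and Ces2a -0.46 (0.370). WT replicates 5 and 6 share their numbers with no KO library, so they add nothing to the fold changes of that fit. List counts moved without WT replicate 4 as given in the report, 2 correlations of Ces1c changed sign (with Ces2a to -0.0623, with Ces2c to -0.305), and the WT level per kb of 6 of the 10 members moved by over 1 SD with another length. Levels of Ces2c, at 45 to 329 counts per library, have the least depth.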
